A study of Homo sapiens with 18 samples.

Results

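Catalase, the superoxide dismutases and the glutathione and thioredoxin peroxidases are described here in EpCAM+ hepatocellular carcinoma (HCC) cells exposed to disulfiram (DSF) or 5-fluorouracil (5-FU). The 10 genes, CAT, SOD1, SOD2, GPX1, GPX2, GPX4, PRDX1, PRDX3, PRDX5 and PRDX6, were found by RefSeq accession or gene symbol among 19720 named genes, and they were read by 12 of 42327 probes. Total RNA of 6 groups with 3 arrays each was labelled with Cy3 and hybridised to 1-colour Agilent arrays. The groups were Huh1 control, Huh1 with DSF, Huh1 with 5-FU, Huh7 control, Huh7 with DSF and Huh7 with 5-FU. DSF was given at 0.1 μM and 5-FU at 1 μM, each for 48 h, and EpCAM+ cells were then sorted in all 6 groups. Huh1 and Huh7 are established human HCC lines, and the 3 samples of a group came from independent experiments per the series' design. Per the methods copper chloride accompanied DSF, and the vehicle of the control cells is not given there, so DSF and copper cannot be told apart. Each condition is bulk RNA of a sorted population, in which fewer cells of a kind and less RNA per cell cannot be told apart.

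A level below is the log2 processed signal of a probe minus the 75th percentile of its array, so that 0 is that percentile and a difference of 1 is a 2-fold change. All 12 probes were well above background on all 18 arrays. Of 9 epithelial and hepatocytic markers, 9 were well above background on every array, with group means of 8.07 to 8.62 for albumin (ALB). After DSF, 7 of these markers were lower and 1 higher in Huh1 (median -0.55), and 5 were lower and 2 higher in Huh7 (median -0.33). Of all tested probes 20.3% and 19.4% were lower and 23.9% and 27.3% higher. EPCAM was -0.66 and -0.50 in the 2 lines (adjusted p = 0.00633 and 0.0294) and APOA1 -2.03 and -0.82, whereas KRT19 was 1.98 in Huh1, and KRT8 and KRT18 were 0.42 and 0.51 in Huh7. After 5-FU, 3 were higher in each line, with 2 lower in Huh1 and 3 in Huh7. The part of these markers in the results below was not tested. Of 9 markers of leukocytes, endothelium, fibroblasts and stellate cells, 4 (PTPRC, CD68, PECAM1 and DES) were well above background on all 18 arrays, and CD3E, VWF, COL1A1, DCN and ACTA2 were so on some arrays only. The arrays lay on 3 slides, with the Huh1 groups on slide 1 apart from DSF replicate 3, and the Huh7 groups on slide 2 apart from DSF replicates 2 and 3, which were on slide 3. Cell line and slide therefore cannot be fully told apart, and the DSF change in Huh7 is also given with slide as a block where that matters. Slide 3 was scanned on another day than slides 1 and 2. Its 2 arrays had the highest shares of probes well above background, 70.6% and 71.1%. Slide 2 alone holds 1 Huh7 DSF array, which its fit assumes to vary like the other groups, and gives the same log2 changes as the block. Against the 7 spike-in probes, the 75th percentile after 5-FU stood above its control value by 0.83 in Huh1 and by 0.98 in Huh7. Every change after 5-FU is therefore a change relative to the other probes of the array. After DSF the difference from control was 0.13 in Huh1 and -0.18 in Huh7, but it varied with slide. In Huh1 the percentile minus the spike-in mean was -3.23 and -3.19 on slide 1 and -2.94 on slide 2 after DSF (control mean -3.26). In Huh7 it was -3.13 on slide 2 and -3.48 on both slide 3 arrays (control mean -3.19). DSF values on the spike-in scale therefore cannot be fully told apart from slide.

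Superoxide leaking from respiration and oxidases is converted to hydrogen peroxide by superoxide dismutases, SOD1 in the cytosol with copper and zinc and SOD2 in the mitochondrial matrix with manganese. The peroxide is then removed by catalase, a heme enzyme of peroxisomes, by glutathione peroxidases, of which GPX1, GPX2 and GPX4 carry selenocysteine, and by peroxiredoxins, which use a reactive cysteine. Hepatocytes are known for abundant peroxisomes and catalase. Glutathione peroxidases are recharged by glutathione and peroxiredoxins mostly by thioredoxin, both of which draw on NADPH.

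Promoter windows of 7 of the 10 genes, CAT, SOD2, GPX1, GPX2, GPX4, PRDX3 and PRDX5, were matched in the RefSeq table of build GRCh38.p14. The 250 bases before the start are shown for CAT, GPX2 and PRDX3, which were lower in all 4 comparisons of drug with control, and for the SOD2 start at chr6:159693242-159693491, since SOD2 was the gene with the largest rise among the 10. In the CAT window (chr11:34438684-34438933, plus strand) capitals mark 5 matches to CCAAT or its reverse complement. In the GPX2 window (chr14:64942746-64942995, minus strand) capitals mark the match to TGACNNNGC, the core of the antioxidant response element bound by NRF2, on the opposite strand. Capitals mark GGGCGG or its reverse complement in the windows of PRDX3 (chr10:119178813-119179062, minus strand, 3 matches) and SOD2 (minus strand, 6 matches, some of which overlap each other).
CAT: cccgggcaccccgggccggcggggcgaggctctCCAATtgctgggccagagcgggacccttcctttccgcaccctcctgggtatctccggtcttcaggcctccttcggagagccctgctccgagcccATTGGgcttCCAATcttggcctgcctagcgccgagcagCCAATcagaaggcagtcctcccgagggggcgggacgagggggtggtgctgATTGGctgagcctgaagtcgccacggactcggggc
GPX2: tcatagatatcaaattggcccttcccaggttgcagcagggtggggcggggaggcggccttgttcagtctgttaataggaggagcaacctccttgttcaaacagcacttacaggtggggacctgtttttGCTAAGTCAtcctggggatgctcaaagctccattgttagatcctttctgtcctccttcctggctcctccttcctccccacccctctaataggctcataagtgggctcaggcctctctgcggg
PRDX3: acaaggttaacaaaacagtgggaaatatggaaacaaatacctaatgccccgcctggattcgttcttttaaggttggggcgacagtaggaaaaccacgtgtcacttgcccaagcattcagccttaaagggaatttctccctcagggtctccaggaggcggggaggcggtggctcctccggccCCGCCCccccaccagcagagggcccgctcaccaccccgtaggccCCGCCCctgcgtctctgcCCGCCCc
SOD2: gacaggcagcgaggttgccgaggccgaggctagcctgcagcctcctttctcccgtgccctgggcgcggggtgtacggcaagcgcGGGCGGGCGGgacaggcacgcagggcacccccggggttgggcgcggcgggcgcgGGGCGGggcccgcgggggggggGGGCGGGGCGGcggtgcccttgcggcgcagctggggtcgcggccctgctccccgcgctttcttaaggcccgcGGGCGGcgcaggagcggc
Both strands were searched in 35116 promoter windows of the same length. TGACNNNGC was found in 10.9% of them and, among the 7 genes, in GPX2, where it began 122 bases before the start. CCAAT was found in 32% of windows and in CAT, GPX2, GPX4 and SOD2, and GGGCGG was found in 42.6% and in all 7 genes, counting a gene with several windows if any held a match. The metal response element core TGCGCNC stood in 16.8% of windows and in GPX1, GPX4, PRDX5 and SOD2, and TGCACNC in 9.87% and in none of the 7. The shares are per window, whereas SOD2 had 4 windows, GPX4 3 and PRDX5 2, so a share and a count of genes are unlike. The SOD2 matches to CCAAT and TGCGCNC lie at other starts than the one shown. All these matches are descriptions of letters and not of binding.

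DSF lowered a subset of the 10 genes in each line, and 5-FU lowered most of them relative to the other probes of the array, which was not so on the spike-in scale. After DSF, 2 were higher and 5 lower in Huh1, where 44.2% of all 29894 tested probes were called in either direction (23.9% higher and 20.3% lower). In Huh7 after DSF, 1 was higher and 4 were lower, against 46.7% of probes called (27.3% higher and 19.4% lower). After 5-FU, 2 were higher and 8 lower in Huh1 (48.2% of probes called, 22.2% higher and 26% lower), and 0 were higher and 8 lower in Huh7 (57.1% called, 27.3% higher and 29.7% lower). At an unadjusted p under 0.05 the number higher after 5-FU in Huh7 was also 0. The median change of the 10 genes was -0.22 and -0.043 after DSF in Huh1 and Huh7 and -0.52 and -0.49 after 5-FU, whereas the medians of all tested probes were 0.0023, 0.083, -0.033 and -0.048. All 3 treated arrays lay beyond all 3 control arrays for 7 genes after DSF in Huh1 (59.1% of probes), 9 in Huh7 (60.5%), 10 after 5-FU in Huh1 (56.2%) and 9 in Huh7 (66.3%). All calls are limma's at an adjusted p under 0.05 over all tested probes.

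These directions hold relative to the other probes of an array. Scaled on the spike-ins instead, 2 genes were higher and 2 lower after DSF in Huh1, with 0 higher and 4 lower in Huh7. On that scale 4 were higher and 1 lower after 5-FU in Huh1, and 6 were higher and 1 lower in Huh7, while the median of all tested probes moved to 0.79 and 0.94. With slide as a block, DSF left 1 higher and 5 lower in Huh1, against 1 higher and 2 lower in Huh7. The number higher after DSF in Huh1 was 1 without control replicate 3 or DSF replicate 1 or 3. In Huh7 it was 4 without 5-FU replicate 2 and 2 without Huh7 5-FU replicate 1 or 3, Huh7 DSF replicate 1 or 2, or Huh1 5-FU replicate 1. With arrays scaled on their medians, DSF in Huh1 gave 1 gene higher and 7 lower, and the median of all tested probes was -0.17 rather than 0.0023. The shares of all probes called are given for the main setting only. Counts of genes under other settings, here and below, therefore stand without a background share beside them.

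**Figure D1:**
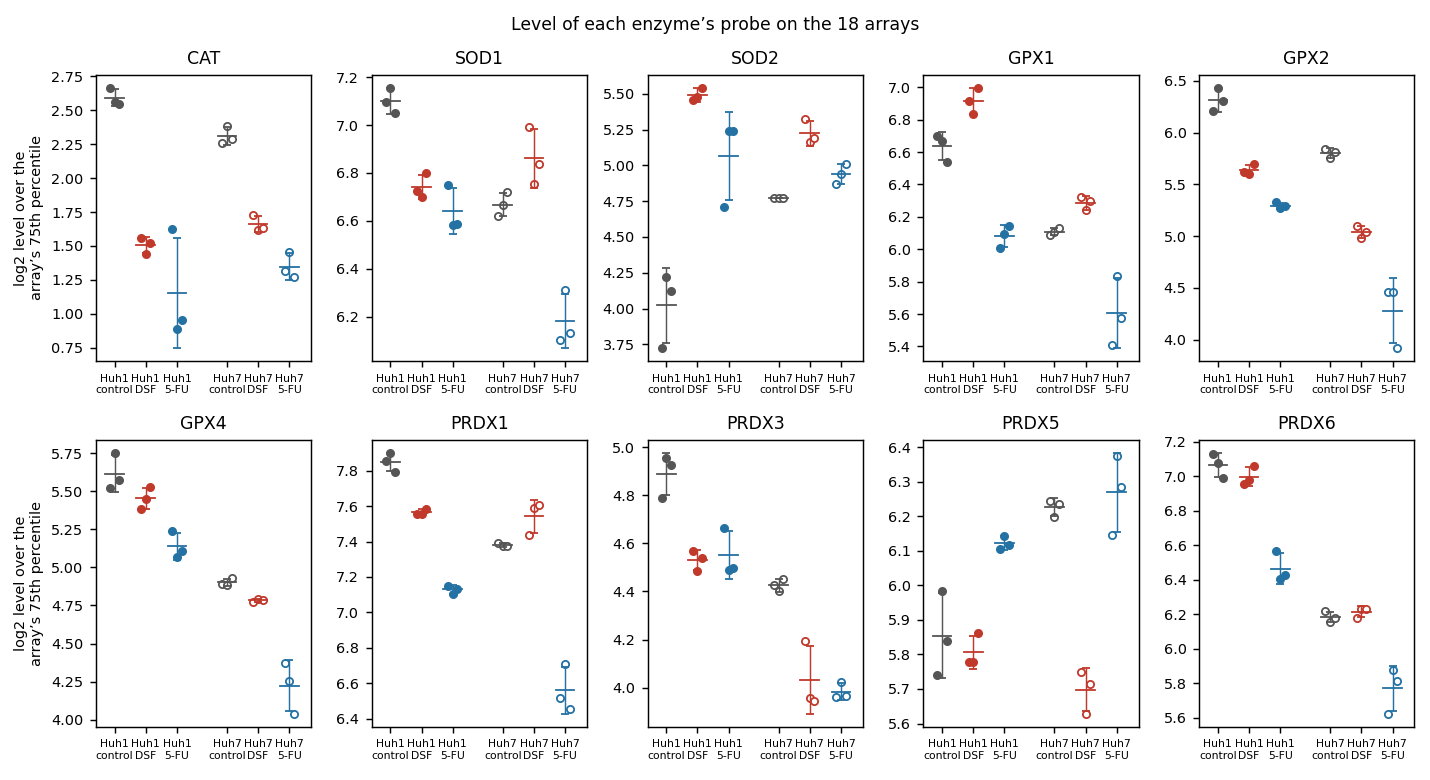
Level of the brightest probe of each of the 10 genes on the 18 arrays (log2 over the array's 75th percentile, vertical axes not shared) in the 6 groups on the horizontal axis, with filled points for Huh1 and open points for Huh7, a line at the mean and bars of 1 SD over 3 arrays. CAT and GPX2 lie lower in every treated group than in the control of the same line, and SOD2 lies higher in each.

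SOD2, the manganese dismutase of mitochondria, rose most. In Huh1 control cells the 3 arrays gave 3.72, 4.22 and 4.12, after DSF 5.45, 5.48 and 5.54, and after 5-FU 4.71, 5.24 and 5.24. In Huh7 the control arrays gave 4.77 on each of 3, DSF arrays 5.33, 5.16 and 5.19, and 5-FU arrays 4.87, 4.94 and 5.01. Every treated array of a line was above every control array of it. DSF raised SOD2 by 1.47 ± 0.14 (SE) on the log2 scale, or 2.77-fold, in Huh1 (adjusted p = 1.23e-06), and by 0.46 ± 0.14, or 1.37-fold, in Huh7 (adjusted p = 0.0144). 5-FU raised it by 1.04 in Huh1 (2.06-fold, adjusted p = 2.75e-05), and the change of 0.17 in Huh7 did not pass (95% interval -0.13 to 0.46, adjusted p = 0.312). The rise after DSF in Huh7 lost its call under quantile normalization (0.35, adjusted p = 0.0742), with slide as a block (0.56, adjusted p = 0.0613) and on the spike-in scale (0.28, adjusted p = 0.274). On slide 2 alone, with 1 DSF array, it was 0.56.

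SOD1, the copper and zinc dismutase of the cytosol, did not follow SOD2. Its Huh1 arrays gave 7.09, 7.16 and 7.05 in control cells, 6.72, 6.70 and 6.80 after DSF, and 6.75, 6.58 and 6.59 after 5-FU. Its Huh7 arrays gave 6.62, 6.66 and 6.72 in control cells, 6.99, 6.75 and 6.84 after DSF, and 6.10, 6.31 and 6.13 after 5-FU. Thus DSF arrays lay below control in Huh1 and above it in Huh7, without overlap in either line. SOD1 fell by 0.36 ± 0.077 after DSF in Huh1 (adjusted p = 0.00158), and its change of 0.19 in Huh7 (95% interval 0.027 to 0.36) missed the threshold at adjusted p = 0.0537. After 5-FU it was lower by -0.46 in Huh1 and by -0.49 in Huh7 (adjusted p = 0.000208 and 8.3e-05), but 0.37 and 0.50 on the spike-in scale and without a call under quantile normalization (-0.10 and -0.083). With slide as a block the DSF change in Huh7 was 0.32 (adjusted p = 0.0276), and on the spike-in scale that in Huh1 was -0.22 (adjusted p = 0.277).

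CCS, the chaperone that loads copper into SOD1, was lower by -0.28 after DSF in Huh1 (adjusted p = 0.0016), whereas its change of -0.098 in Huh7 did not pass (adjusted p = 0.202). After 5-FU it was lower in Huh1 (-0.40, but 0.43 on the spike-in scale) and higher in Huh7 (0.18, adjusted p = 0.0229). The Huh7 value of CCS after 5-FU lost its call without Huh7 control replicate 2 or 3 or 5-FU replicate 3 (0.17, 0.17 and 0.13).

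Catalase, the peroxisomal enzyme that splits hydrogen peroxide, was among the genes that fell in every comparison of drug with control. CAT levels in Huh1 were 2.67, 2.56 and 2.55 in control cells, 1.56, 1.44 and 1.52 after DSF and 1.62, 0.89 and 0.95 after 5-FU. In Huh7 they were 2.26, 2.38 and 2.28 in control cells, 1.73, 1.62 and 1.64 after DSF and 1.32, 1.46 and 1.27 after 5-FU. No treated array reached the lowest control array of its line, and the 3 Huh1 5-FU arrays spread most (SD 0.41), with replicate 1 apart from the other two. DSF lowered CAT 2.12-fold in Huh1 (-1.09 ± 0.14, adjusted p = 2.57e-05) and 1.57-fold in Huh7 (-0.65 ± 0.14, adjusted p = 0.00189). 5-FU lowered it 2.71-fold in Huh1 (adjusted p = 2.09e-06) and 1.95-fold in Huh7 (adjusted p = 4.26e-05). The DSF change in Huh7 was -0.58 with slide as a block and lost its call (adjusted p = 0.0621), though it passed on slide 2 alone (adjusted p = 0.0185), and the 5-FU change was -0.61 in Huh1 and 0.024 in Huh7 on the spike-in scale. The epithelial and hepatocytic markers were also mostly lower after DSF, and their part in the fall of CAT was not tested.

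GPX2, the gastrointestinal glutathione peroxidase, had the widest range of group means among the 10 genes, 2.04 on the log2 scale. Levels in Huh1 were 6.21, 6.43 and 6.31 in control cells, 5.62, 5.60 and 5.69 after DSF and 5.32, 5.27 and 5.29 after 5-FU. In Huh7 the control arrays gave 5.84, 5.75 and 5.81, the DSF arrays 5.09, 4.98 and 5.03, and the 5-FU arrays 4.46, 4.46 and 3.92. The 6 groups were fully ordered, from Huh1 control at the top through Huh7 control, Huh1 DSF, Huh1 5-FU and Huh7 DSF to Huh7 5-FU, and no neighbours overlapped. GPX2 fell after DSF 1.60-fold in Huh1 (-0.68 ± 0.11, adjusted p = 0.000241) and 1.70-fold in Huh7 (-0.77 ± 0.11, adjusted p = 9.65e-05). After 5-FU it fell 2.03-fold in Huh1 (adjusted p = 6.78e-06) and 2.87-fold in Huh7 (adjusted p = 6.12e-08). The Huh7 DSF change was -0.71 with slide as a block and passed (adjusted p = 0.00878), though not on slide 2 alone with its 1 DSF array (adjusted p = 0.0796). The 5-FU change in Huh1 was -0.19 on the spike-in scale (adjusted p = 0.334), where that in Huh7 was -0.54.

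The genes whose levels were most like those of GPX2 over the 18 arrays, among 15851 genes, were UBAC2 (Pearson r = 0.97), MAPK9 (0.96), AHCY (0.96), BCAS4 (0.96) and ATP11B (0.95). The 18 arrays share their groups and slides, so these values describe a shared pattern over 6 groups. Among the 10 genes, GPX2 correlated with GPX4 at 0.89, with PRDX3 at 0.87 and with SOD2 at -0.48.

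GPX1, the general cytosolic glutathione peroxidase, was raised by DSF in Huh1 and lowered by 5-FU in both lines on the 75th percentile scale. Its brighter probe gave 6.70, 6.67 and 6.54 in Huh1 control, 6.92, 6.83 and 6.998 after DSF, and 6.01, 6.10 and 6.14 after 5-FU. In Huh7 it gave 6.09, 6.11 and 6.13 in control, 6.32, 6.24 and 6.30 after DSF, and 5.41, 5.84 and 5.57 after 5-FU. DSF arrays lay above control and 5-FU arrays below control in both lines. GPX1 rose by 0.28 ± 0.090 after DSF in Huh1 (adjusted p = 0.0208), and its change of 0.18 in Huh7 did not pass (95% interval -0.017 to 0.37, adjusted p = 0.123). The second probe gave 0.31 and 0.17 after DSF and passed in both lines (adjusted p = 0.000888 and 0.0316), so the probes differ in the call for Huh7. That call of the second probe was lost on the spike-in scale (-0.0041), with slide as a block (adjusted p = 0.163), with the replicate block (0.0512), without a filter on dim probes (0.0573), with normexp (0.0902), median scaling (0.113) or quantile normalization (0.214), and without any 1 Huh7 control replicate or DSF replicate 2 or 3 (0.0537 to 0.0989). The Huh1 rise was 0.24 on slide 1 alone (adjusted p = 0.0544) and 0.11 with arrays scaled on the median (adjusted p = 0.407), and it lost its call without Huh1 DSF replicate 1 or 3 or Huh1 control replicate 3 (0.28, 0.24 and 0.23). After 5-FU GPX1 was lower by -0.55 in Huh1 and by -0.50 in Huh7 (adjusted p = 0.000171 and 0.000249), but 0.28 and 0.48 on the spike-in scale and without a call in Huh7 under quantile normalization (-0.19).

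GPX4 reduces lipid peroxides within membranes and is the peroxidase that guards against ferroptosis. In Huh1 its levels were 5.52, 5.75 and 5.58 in control cells, 5.39, 5.45 and 5.53 after DSF and 5.24, 5.07 and 5.11 after 5-FU. In Huh7 they were 4.89, 4.88 and 4.93 in control cells, 4.77, 4.79 and 4.79 after DSF and 4.37, 4.25 and 4.04 after 5-FU. DSF arrays overlapped control arrays in Huh1 and lay below them in Huh7. The changes after DSF did not pass the test, at -0.16 in Huh1 (95% interval -0.34 to 0.018, adjusted p = 0.135) and -0.12 in Huh7 (-0.30 to 0.062, adjusted p = 0.265). With median scaling the Huh1 value was -0.34 and passed (adjusted p = 0.0138). After 5-FU GPX4 was lower by -0.48 in Huh1 and by -0.68 in Huh7 (adjusted p = 0.000319 and 8.04e-06), but 0.35 and 0.30 on the spike-in scale.

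Among the peroxiredoxins, PRDX3, the mitochondrial enzyme, was the one that fell in all 4 comparisons. Its Huh1 levels were 4.79, 4.95 and 4.92 in control, 4.57, 4.48 and 4.54 after DSF, and 4.67, 4.49 and 4.50 after 5-FU. Its Huh7 levels were 4.43, 4.40 and 4.45 in control, 4.19, 3.96 and 3.95 after DSF, and 3.96, 4.02 and 3.97 after 5-FU. Treated and control arrays did not overlap in either line. The changes were of like size, -0.36 and -0.39 after DSF in Huh1 and Huh7 (adjusted p = 0.00124 and 0.000631) and -0.34 and -0.44 after 5-FU (adjusted p = 0.00174 and 0.000139). The DSF value in Huh7 was -0.23 with slide as a block (adjusted p = 0.0703). On the spike-in scale PRDX3 was 0.49 and 0.54 after 5-FU and -0.22 after DSF in Huh1 (adjusted p = 0.291).

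PRDX5, which works in mitochondria, peroxisomes and the cytosol, had a pattern of its own. It was 5.74, 5.98 and 5.84 in Huh1 control, 5.78, 5.78 and 5.86 after DSF, and 6.11, 6.14 and 6.12 after 5-FU. In Huh7 it was 6.25, 6.20 and 6.24 in control, 5.75, 5.63 and 5.71 after DSF, and 6.15, 6.37 and 6.29 after 5-FU. DSF and control arrays overlapped in Huh1 and were well apart in Huh7. DSF lowered PRDX5 1.44-fold in Huh7 (-0.53 ± 0.071, adjusted p = 3.49e-05), whereas the Huh1 change was -0.049 (95% interval -0.20 to 0.10, adjusted p = 0.613). After 5-FU it was 1.20-fold higher in Huh1 (adjusted p = 0.00616) and 0.042 on the log2 scale in Huh7 (adjusted p = 0.636). Scaled on the spike-ins, its changes after 5-FU were 1.096 and 1.03, and under quantile normalization the Huh7 value was 0.42 and passed.

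PRDX1, the main cytosolic peroxiredoxin, was read by 2 probes. The brighter one gave 7.85, 7.90 and 7.79 in Huh1 control, 7.56, 7.56 and 7.58 after DSF, and 7.15, 7.10 and 7.13 after 5-FU. In Huh7 it gave 7.39, 7.37 and 7.37 in control, 7.43, 7.59 and 7.60 after DSF, and 6.52, 6.71 and 6.46 after 5-FU. The DSF arrays lay below control in Huh1 and above it in Huh7. PRDX1 fell by 0.28 after DSF in Huh1 (adjusted p = 0.00315), and the Huh7 change of 0.16 missed the threshold (adjusted p = 0.0585). The second probe gave -0.34 in Huh1 (adjusted p = 0.000393) and -0.039 in Huh7 (adjusted p = 0.625), so the direction in Huh7 depended on the probe, and on slide 2 alone the probes gave 0.055 and 0.056. 5-FU lowered PRDX1 by -0.72 in Huh1 and by -0.82 in Huh7 (adjusted p = 1.23e-06 and 1.3e-07) on this scale, but the spike-in scale gave 0.11 and 0.17.

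PRDX6, the peroxiredoxin that is recharged by glutathione and also acts on phospholipids, was not called after DSF. Its levels were 7.13, 7.08 and 6.99 in Huh1 control, 6.95, 6.98 and 7.06 after DSF, and 6.56, 6.40 and 6.42 after 5-FU. In Huh7 they were 6.22, 6.15 and 6.18 in control, 6.18, 6.23 and 6.23 after DSF, and 5.62, 5.88 and 5.81 after 5-FU. DSF and control arrays overlapped in both lines. The DSF changes were -0.069 in Huh1 (95% interval -0.22 to 0.081, adjusted p = 0.459) and 0.032 in Huh7 (-0.12 to 0.18, adjusted p = 0.734). With median scaling the Huh1 value was -0.24 and passed (adjusted p = 0.0161). After 5-FU PRDX6 was lower by -0.60 in Huh1 and by -0.41 in Huh7 (adjusted p = 9.04e-06 and 0.000157), but 0.23 and 0.57 on the spike-in scale and without a call in Huh7 under quantile normalization (-0.083).

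**Figure D2:**
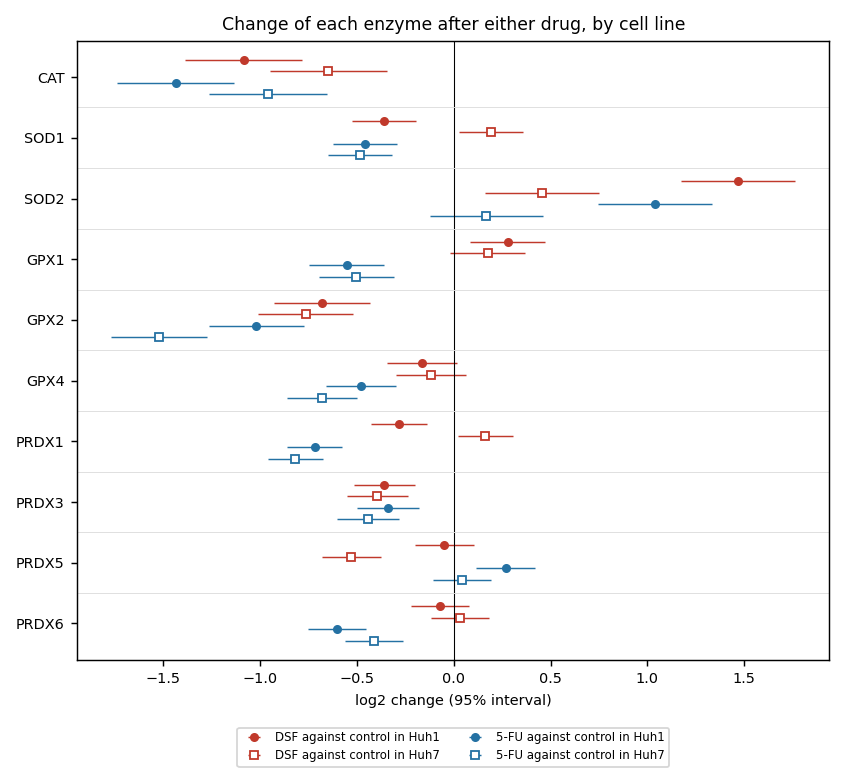
Change of each of the 10 genes on the log2 scale (horizontal axis) after DSF (red) and 5-FU (blue) in Huh1 (filled circles) and Huh7 (open squares), with limma's 95% interval as the bar. CAT, GPX2 and PRDX3 lie left of 0 in all 4 comparisons, and SOD2 after DSF in Huh1 lies farthest right at 1.47.

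The drugs were also set against each other within a line, which asks where the response to DSF differs from that to 5-FU. DSF arrays were higher than 5-FU arrays for 6 genes and lower for 1 in each line, where 49.2% of probes were called in Huh1 (28.7% higher and 20.6% lower) and 60.5% in Huh7 (35.6% higher and 25% lower). All 3 arrays of each drug lay apart for 7 genes in Huh1 (63.6% of probes) and for 9 in Huh7 (63.3%). PRDX5 was the lower one, by -0.32 in Huh1 and by -0.57 in Huh7 (adjusted p = 0.00194 and 8.28e-06). GPX1 was 1.78-fold and 1.60-fold higher after DSF than after 5-FU in Huh1 and Huh7 (adjusted p = 4.43e-06 and 1.6e-05), GPX2 1.27-fold and 1.69-fold, GPX4 1.24-fold and 1.48-fold, PRDX1 1.35-fold and 1.97-fold, and PRDX6 1.45-fold and 1.36-fold. SOD2 passed in Huh1 (0.43, adjusted p = 0.0182) and not in Huh7 (0.29, adjusted p = 0.0852), and SOD1 passed in Huh7 (0.68) and not in Huh1 (0.10). PRDX3 and CAT did not differ by the test in either line, with intervals of -0.18 to 0.14 and -0.11 to 0.21 for PRDX3 and of 0.048 to 0.65 and 0.0087 to 0.62 for CAT in Huh1 and Huh7. On the spike-in scale 0 of the 10 genes were higher after DSF than after 5-FU in either line, and 4 and 9 were lower in Huh1 and Huh7. CAT in Huh1 was 0.59 without 5-FU replicate 1 and then passed (adjusted p = 2.65e-05), SOD2 in Huh1 lost its call without 5-FU replicate 1 or DSF replicate 3 (0.25 and 0.40), and GPX2 in Huh1 lost it without 5-FU replicate 2 or 3 or DSF replicate 3 (0.33, 0.34 and 0.31).

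Whether the response to a drug differed between the lines was tested by subtracting the Huh1 change from the Huh7 change. For DSF, 2 genes differed upwards and 2 downwards, against 40.3% of all probes (21.1% up and 19.2% down). SOD1 and PRDX1 changed more positively in Huh7, by 0.55 ± 0.11 (adjusted p = 0.00116) and 0.45 ± 0.094 (adjusted p = 0.00192), and both probes of PRDX1 passed (0.30 for the second, adjusted p = 0.0128). SOD2 and PRDX5 changed more negatively in Huh7, by -1.01 ± 0.19 (adjusted p = 0.00092) and -0.48 ± 0.10 (adjusted p = 0.0017). Cell line and slide cannot be fully told apart in these differences. With slide as a block the DSF changes in Huh1 and Huh7 were -0.39 and 0.32 for SOD1 and -0.29 and 0.055 for PRDX1. They were 1.44 and 0.56 for SOD2 and -0.076 and -0.48 for PRDX5. For 5-FU, 0 genes differed upwards and 2 downwards, SOD2 by -0.87 ± 0.19 (adjusted p = 0.00285) and GPX2 by -0.50 ± 0.16 (adjusted p = 0.026), against 36.6% of probes (18.8% up and 17.8% down). At an unadjusted p under 0.05, 1 gene, CAT, differed upwards for 5-FU. GPX2 lost its call without Huh1 control replicate 1 or Huh7 control replicate 1 (-0.45 and -0.48), and on the spike-in scale 0 genes differed upwards for DSF and 0 in either direction for 5-FU. CAT differed by 0.44 for DSF and 0.48 for 5-FU without passing (adjusted p = 0.0961 and 0.0781), but passed for both without Huh1 5-FU replicate 1 (0.44 and 0.71, adjusted p = 0.00184 and 8.9e-05). GPX1, GPX4, PRDX3 and PRDX6 passed for neither drug, with intervals for DSF of -0.38 to 0.17, -0.21 to 0.30, -0.26 to 0.19 and -0.11 to 0.31.

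**Figure D3:**
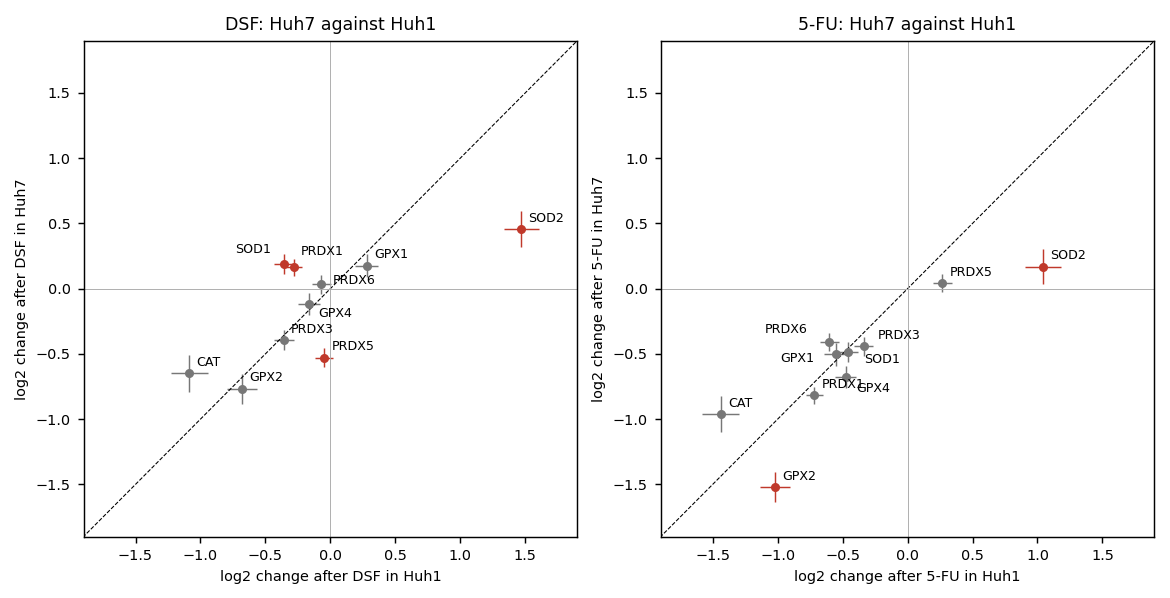
Change on the log2 scale in Huh7 (vertical axis) against that in Huh1 (horizontal axis) for each of the 10 genes after DSF (left) and after 5-FU (right), with bars of 1 SE and a dashed line where both are equal. Red points mark genes whose change differed between the lines, SOD1, SOD2, PRDX1 and PRDX5 for DSF and SOD2 and GPX2 for 5-FU.

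The lines already differed before treatment. Of the 10 genes, 2 were higher and 7 lower in Huh7 control than in Huh1 control cells, where 70.7% of probes were called (34.5% higher and 36.2% lower), and for 10 all 3 arrays of each line lay apart (77.2% of probes). SOD2 was 1.68-fold and PRDX5 1.29-fold higher in Huh7 (adjusted p = 0.000188 and 0.00026). PRDX6 was 1.84-fold lower and GPX4 1.64-fold lower (adjusted p = 2.88e-08 and 2.24e-06), and SOD1, GPX1, GPX2, PRDX1 and PRDX3 were 1.35-fold to 1.44-fold lower. CAT was -0.28 and did not pass (95% interval -0.59 to 0.020, adjusted p = 0.0876). These values compare slide 1 with slide 2 throughout. With slide as a block, which rests on the Huh1 DSF arrays on both slides, PRDX5 was 0.29 and lost its call (adjusted p = 0.0733), as it did with median scaling (0.21, adjusted p = 0.0549), under which CAT was -0.44 and passed.

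The enzymes that hand reducing power to the peroxidases were read from a list of 17 genes, all of them tested. In Huh1, DSF left 1 higher and 14 lower (median change -0.36), where 23.9% of all probes were higher and 20.3% lower. Huh7 had 8 higher and 3 lower after DSF (median 0.17), against 27.3% and 19.4% of probes. The change was more positive in Huh7 for 12 of the 17 and more negative for 1, against 21.1% and 19.2% of probes. These DSF counts are on the 75th percentile scale. Against the spike-ins that percentile differed from control after DSF by 0.13 in Huh1 and by -0.18 in Huh7, but it varied with slide. Within slide 1 it was -3.23 and -3.19 after DSF in Huh1 (control mean -3.26). Within slide 2 it was -3.13 after DSF in Huh7 (control mean -3.19). The DSF arrays on other slides gave -2.94 in Huh1 and -3.48 on both in Huh7. Cell line and slide cannot be fully told apart in these counts either. The counts for 5-FU were 1 higher and 15 lower in Huh1 (22.2% and 26% of probes), against 2 higher and 13 lower in Huh7 (27.3% and 29.7%), with medians of -0.47 and -0.47.

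TXN, the cytosolic thioredoxin, was -0.15 after DSF in Huh1 (adjusted p = 0.0245) and 0.26 in Huh7 (adjusted p = 0.000885). TXNRD1, which recharges it with NADPH, rose by 0.82 after DSF in Huh7 (adjusted p = 9.35e-07) and was -0.10 in Huh1 (adjusted p = 0.293). SRXN1, which rescues overoxidised peroxiredoxins, was -0.43 in Huh1 and 0.42 in Huh7, and GSR, which recharges glutathione, was -0.24 and 0.27, with all 4 values past the threshold. The Huh1 call of TXN was lost on slide 1 alone (-0.16) and without Huh1 control replicate 1 or 2 or any DSF replicate (-0.16 to -0.13). On the spike-in scale TXN, SRXN1 and GSR lost their calls in both lines, and TXNRD1 kept it in Huh7 (0.65). The DSF shift on that scale cannot be fully told apart from slide. With slide as a block the Huh7 values of TXN and GSR were 0.21 and 0.29 and passed (adjusted p = 0.0431 and 0.0178), though not on slide 2 alone with its 1 DSF array (adjusted p = 0.129 and 0.0902).

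After 5-FU the same 4 genes were lower in both lines, TXN by -0.47 and -0.68, TXNRD1 by -0.64 and -0.94, SRXN1 by -0.42 and -1.05, and GSR by -0.90 and -1.24, with spike-in values of 0.36 and 0.30, 0.19 and 0.049, 0.41 and -0.069, and -0.073 and -0.26. TXNRD2, the mitochondrial thioredoxin reductase that serves PRDX3, fell most on average, by -0.75 in Huh1 and by -1.47 in Huh7 (0.082 and -0.48 on the spike-in scale). The mitochondrial glutaredoxin GLRX2 rose in all 4 comparisons, by 0.38 and 0.82 after DSF and by 0.51 and 1.21 after 5-FU. IDH2 and NNT, which supply NADPH to the mitochondrial matrix, fell in all 4. IDH2 was -0.70 and -1.39 after DSF and -0.68 and -0.47 after 5-FU, and NNT was -0.41 and -0.56 after DSF and -0.25 and -0.39 after 5-FU, though on the spike-in scale the 5-FU values were 0.15 and 0.51 for IDH2 and 0.57 and 0.59 for NNT. The 5-FU call of IDH2 in Huh7 was lost without 5-FU replicate 1 (-0.33), and that of NNT in Huh1, where arrays overlapped control, without control replicate 1 or 5-FU replicate 2 or 3 (-0.24, -0.20 and -0.19).

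**Figure D4:**
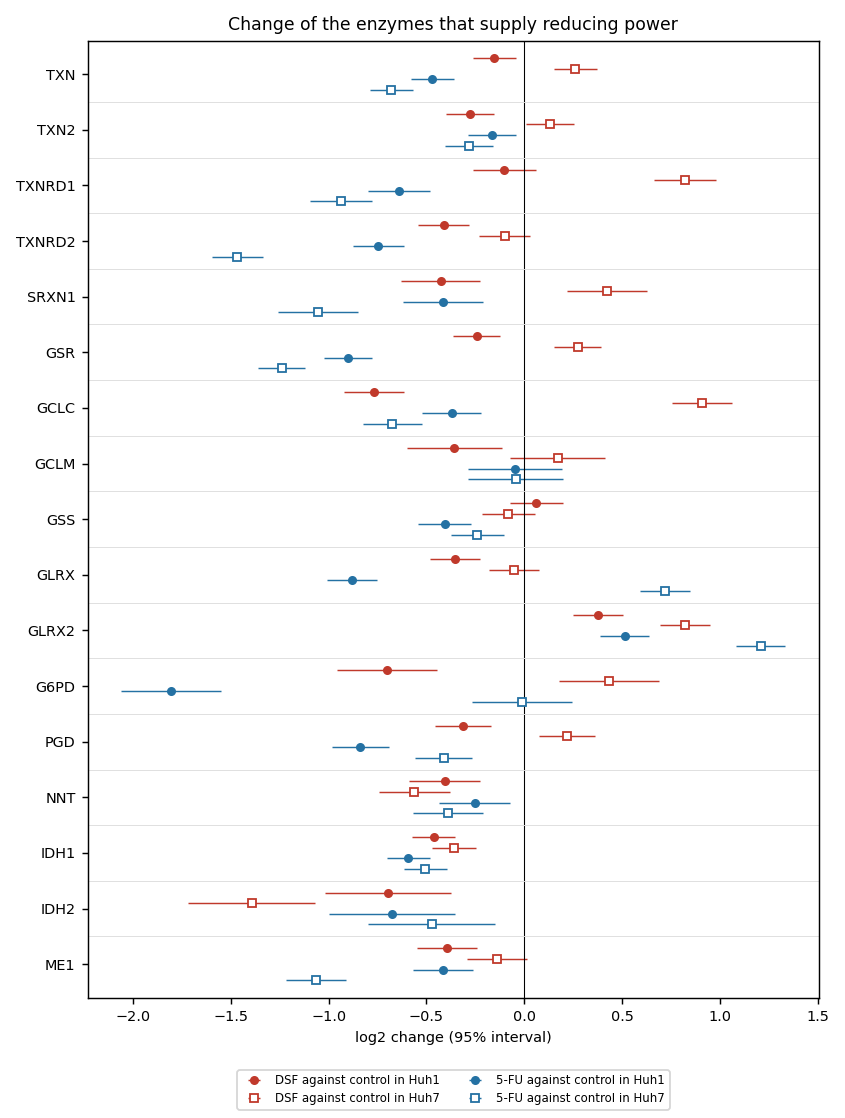
Change on the log2 scale (horizontal axis) of the 17 genes that supply reducing power after DSF (red) and 5-FU (blue) in Huh1 (filled circles) and Huh7 (open squares), with limma's 95% interval as the bar. After DSF the Huh7 squares of TXN, TXNRD1, SRXN1, GSR and GCLC lie right of 0, and their Huh1 circles lie left of it.

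GPX1, GPX2 and GPX4 need selenocysteine, and 11 genes of its synthesis and delivery were tested. DSF left 4 higher and 4 lower in Huh1, against 2 higher and 1 lower in Huh7, and after 5-FU 3 were higher and 5 lower in each line. Of all probes 44.2% and 46.7% were called after DSF in Huh1 and Huh7 and 48.2% and 57.1% after 5-FU. The share called in this short list was above the background in Huh1 after DSF and in both lines after 5-FU. It was below the background in Huh7 after DSF. SEPHS2, which makes the selenium donor, was -0.64 after DSF in Huh1 (adjusted p = 2.67e-05) and 0.93 after 5-FU in Huh7 (adjusted p = 3.16e-07), and did not pass in the other comparisons with control (-0.094 after DSF in Huh7 and -0.062 after 5-FU in Huh1). PSTK, the kinase that acts on the selenocysteine tRNA, rose in all 4 (0.86 and 0.56 after DSF, 0.44 and 0.65 after 5-FU), though the DSF value in Huh7 was 0.38 on the spike-in scale (adjusted p = 0.059). LRP8, a receptor for selenoprotein P, fell by 1.28 and by 2.15 after 5-FU in Huh1 and Huh7 (adjusted p = 2.28e-05 and 7.03e-08), or by 0.45 and 1.16 on the spike-in scale. After DSF LRP8 was -0.16 in Huh1 without a call and -0.50 in Huh7 (adjusted p = 0.0217), where the call was lost with slide as a block (-0.36, adjusted p = 0.313) and without control replicate 2 or DSF replicate 2 or 3 (-0.48, -0.46 and -0.48).

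Of 13 other selenoproteins, DSF left 3 higher and 6 lower in each line, and 5-FU left 1 higher in each line with 10 lower in Huh1 but 8 in Huh7. The shares of all probes called lower were 20.3% and 19.4% after DSF and 26% and 29.7% after 5-FU, and those called higher were 23.9%, 27.3%, 22.2% and 27.3%. SELENOK, a protein of the endoplasmic reticulum, rose after DSF by 0.77 and 0.52 and was lower after 5-FU by -0.52 and -0.32 (0.31 and 0.66 on the spike-in scale). SELENOO was lower after both drugs, by -1.12 in Huh1 and -0.57 in Huh7 after DSF and by -0.84 and -0.78 after 5-FU, although its 5-FU values were -0.012 and 0.20 on the spike-in scale. SELENOH fell after 5-FU, by 0.92 in Huh1 and 1.42 in Huh7, and was -0.096 and -0.030 after DSF without a call. On the spike-in scale SELENOH was -0.095 and -0.43 after 5-FU and passed in Huh7 only, and SELENOK was 0.34 after DSF in Huh7 (adjusted p = 0.0681).

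Catalase is imported into peroxisomes by PEX5. PEX5 was -0.12 after DSF in Huh1 (adjusted p = 0.214) and 0.33 in Huh7 (adjusted p = 0.00299). 5-FU left it lower by -0.23 and by -0.70 in Huh1 and Huh7 (adjusted p = 0.0235 and 2.23e-06), with spike-in values of 0.60 and 0.28. The DSF value in Huh7 was 0.26 with slide as a block (adjusted p = 0.0783), and the 5-FU value in Huh1 lost its call without control replicate 2 or 5-FU replicate 1 or 2 (-0.20, -0.21 and -0.23). Of 15 tested genes of peroxisome assembly, DSF left 1 higher and 5 lower in Huh1 but 4 higher and 4 lower in Huh7, whereas 5-FU left 2 higher in Huh1 and 3 in Huh7, with 7 lower in each. These counts lie near the background in Huh1 and Huh7 after DSF, where 44.2% and 46.7% of all probes were called, and after 5-FU 48.2% and 57.1% were called. PEX11A, which acts in peroxisome division, fell in all 4 comparisons (-0.81, -0.56, -0.49 and -1.05), though on the spike-in scale the 5-FU values were 0.34 in Huh1 and -0.068 in Huh7. Its 5-FU arrays overlapped control in Huh1 and the call was lost without 5-FU replicate 2 or 3 (-0.38 and -0.37), and the DSF call in Huh7 was lost with slide as a block (-0.51, adjusted p = 0.0871). PEX7, an import receptor like PEX5, was -1.11 and -1.29 after 5-FU, and -0.28 and -0.31 without a call on the spike-in scale. After DSF PEX7 was -0.63 in Huh7 (adjusted p = 2.04e-05) and -0.17 in Huh1 (adjusted p = 0.0928).

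The peroxisomal oxidases, which make hydrogen peroxide that catalase removes, were tested for 7 genes. DSF left 0 higher in either line by limma, with 6 lower in Huh1 but 4 in Huh7, and with medians of -0.62 and -0.63 against 0.0023 and 0.083 over all probes, and at an unadjusted p under 0.05 the number higher was also 0 in both. Of all probes 20.3% and 19.4% were lower after DSF and 23.9% and 27.3% higher. The epithelial and hepatocytic markers were also mostly lower after DSF (7 and 5 of 9), and their part in these values was not tested. DAO, the D-amino acid oxidase, fell by 1.48 in Huh1 and by 2.27 in Huh7 after DSF (adjusted p = 0.000761 and 2.24e-05). For 5-FU, 2 were higher and 1 lower in Huh1, whereas Huh7 had 4 higher and 2 lower, against 22.2% higher and 26% lower of all probes in Huh1 and 27.3% and 29.7% in Huh7. DAO was 0.70 in Huh1 (adjusted p = 0.0601) and 0.79 in Huh7 after 5-FU (adjusted p = 0.0296), and the Huh7 call was lost without control replicate 1 or 2 or 5-FU replicate 2 or 3 (0.63 to 0.79). ACOX2, which oxidises branched chains of bile acid precursors, rose by 1.46 and 1.89 after 5-FU (adjusted p = 0.000203 and 1.22e-05) and was 0.16 and -0.18 after DSF without a call.

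Of the other genes of these enzyme families, 6 were tested. DSF left 1 higher and 1 lower in Huh1, whereas Huh7 had 0 higher (1 at an unadjusted p under 0.05) and 1 lower. For 5-FU, Huh1 had 1 higher and 2 lower, whereas Huh7 had 2 higher and 1 lower. These counts are near or under the shares of all probes called, 44.2% and 46.7% after DSF and 48.2% and 57.1% after 5-FU. GPX3, the secreted plasma glutathione peroxidase, was lower after 5-FU by -0.74 and -0.92 (adjusted p = 0.00011 and 8.52e-06), but 0.085 and 0.059 on the spike-in scale. After DSF it was -0.73 in Huh7 (adjusted p = 0.000142, or -0.65 with slide as a block, adjusted p = 0.0125, and not past the threshold on slide 2 alone with its 1 DSF array, adjusted p = 0.0892) and -0.30 in Huh1 (adjusted p = 0.0505).

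Of regulators of these genes, 6 were tested, and DSF left 2 higher and 1 lower in Huh1, against 3 higher and 2 lower in Huh7. The counts for 5-FU were 3 higher and 1 lower in Huh1, against 2 higher and 3 lower in Huh7. Of all probes 44.2% and 46.7% were called after DSF and 48.2% and 57.1% after 5-FU. PPARA, a nuclear receptor that drives peroxisomal genes in liver, fell after DSF by 1.03 in Huh1 and 1.47 in Huh7 (adjusted p = 1.21e-06 and 5.02e-08). Its value for 5-FU was -1.31 in Huh7 (adjusted p = 4.5e-08, or -0.33 on the spike-in scale with adjusted p = 0.0565), and in Huh1 it was -0.22 (adjusted p = 0.0734) but 0.61 on the spike-in scale. Without Huh1 5-FU replicate 1 the Huh1 value was -0.37 and passed (adjusted p = 0.000248). The probe of NFE2L2, which encodes NRF2, was not well above background on all arrays of any group and was not tested.

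**Figure D5:**
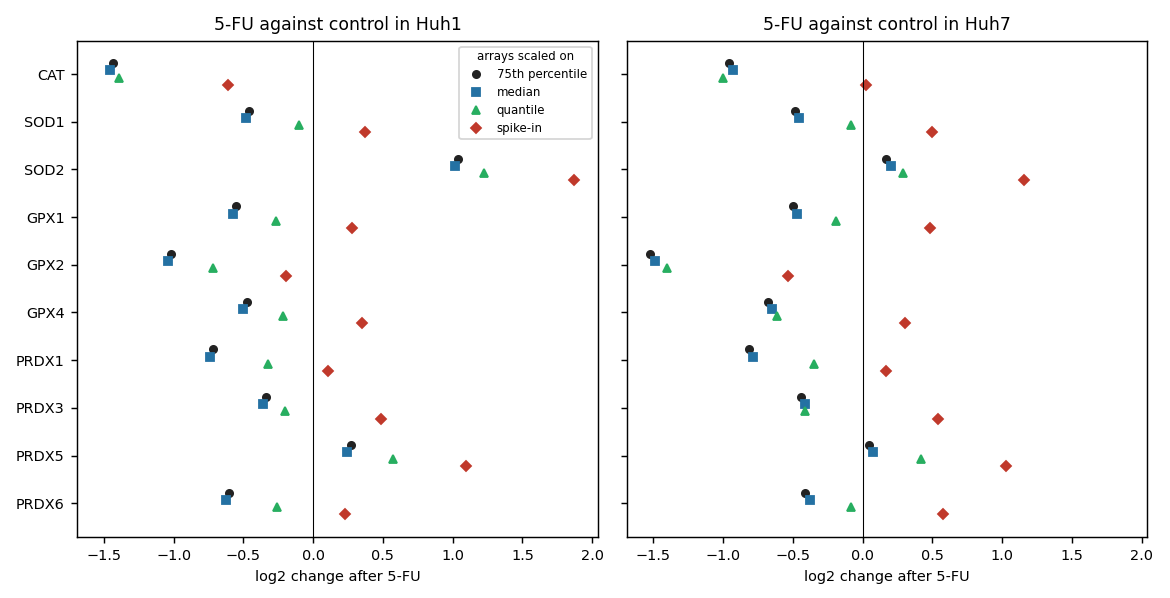
Change of each of the 10 genes after 5-FU on the log2 scale (horizontal axis) in Huh1 (left) and Huh7 (right), with arrays scaled on the 75th percentile, on the median, by quantile normalization or on the spike-ins. Spike-in scaling adds the same amount to every gene's change on the 75th percentile scale, 0.83 in Huh1 and 0.98 in Huh7. The red diamonds therefore lie right of the black circles by construction. GPX2 stays left of 0 in both lines on all 4 scales.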

How the data were processed

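Gene expression of 18 samples was measured on 1-colour Agilent arrays. The deposited scanner files hold the processed signal intensity of each spot, background-subtracted by Agilent Feature Extraction 10.7.1.1 per the file headers. The authors' normalized table, deposited as a linear ratio of each value to its array's 75th percentile, was used as an alternative after taking log2, and 100% of its values lay within 0.05 log2 of the scaling used here. Its columns have medians of 0.0685 to 0.0833.

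Spots of a probe were averaged, 78 of 42405 probes were left out for flagged spots, and log2 intensities were set against each array's 75th percentile. Between 59.9% and 71.1% of probes were well above background, and 0 spots were saturated. A probe was tested if every array of some group had it well above background, which held for 29894, and 1 limma fit covered the 6 groups (limma 3.58.1, R 4.3.3), with Benjamini-Hochberg adjustment over all of them. The fit was tested on simulated data. The brightest probe stands for a gene, and intervals are at 95%. Sequences and gene names come from RefSeq tables (GRCh38.p14). The alternatives were other scalings, normexp background correction (offset 50, on median signals), other filters, slide or replicate number as a block, single slides, the groups of a comparison alone and each array left out.

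The 10 genes and the lists were chosen with earlier results of these data known. Named list genes were the 2 largest rises and the 2 largest falls shared by both lines for a drug, and preset cofactors. Not every gene under the rule is reported.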

Additional observations from a re-analysis of the deposited data

Results flagged for a closer look

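For 6 values the change in Huh7 differed from that in Huh1 by limma's test of the difference itself. After DSF the difference, Huh7 minus Huh1, was 0.55 for SOD1, -1.01 for SOD2, 0.45 for PRDX1 and -0.48 for PRDX5. After 5-FU it was -0.87 for SOD2 and -0.50 for GPX2. For comparison, 40.3% of all tested probes differed between the lines for DSF and 36.6% for 5-FU. Cell line and slide cannot be fully told apart in these values.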

How the results depend on the processing

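Under the authors' normalized table, without a filter on dim probes and with the median over a gene's probes, 90 of 90 values of the 10 genes kept their direction and their side of the threshold. No effect shared by arrays of the same replicate number was seen. Deviations of same-numbered arrays had a median correlation of -0.0252 (-0.0932 to 0.103 over 45 pairs), and 1 array correlated best with its own number. With the replicate number as a block, 90 of 90 values also kept direction and side, and the second GPX1 probe lost its call for DSF in Huh7 (0.17, adjusted p = 0.0512). The number kept was 88 of 90 with normexp background correction, 87 with probes well above background on all arrays, 83 with the groups of a comparison alone, 79 with slide as a block, 73 with median scaling, 69 under quantile normalization and 38 on the spike-in scale, where 39 changed sign. It was 27 of 30 on slide 1 alone and 25 of 30 on slide 2 alone. With 1 array left out at a time, 1577 of 1620 values kept direction and side. Apart from what a setting removes by its construction, the cause of these changes was not tested. With 3 arrays a group, their number limits the precision, and all 12 probes were well above background throughout.

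Under quantile normalization, for DSF in Huh1, the value was 0.018 for PRDX5. As to DSF in Huh7, 0 of the 10 genes were higher and the value was -0.075 for PRDX6. Turning to 5-FU in Huh1, the value was 0.11 for SEPHS2. In the test of 5-FU in Huh7, 1 of the 10 genes was higher and 5 of the 10 genes were lower. With regard to DSF against 5-FU in Huh1, 3 of the 10 genes were higher and 2 of the 10 genes were lower and the value was -0.21 for SOD1. Regarding DSF against 5-FU in Huh7, the value was -0.074 for PRDX3. Likewise for the line difference for DSF, the values were -0.078 for GPX4 and -0.067 for PRDX6. In the comparison of the line difference for 5-FU, the value was 0.017 for SOD1. With median scaling, for DSF in Huh1, 1 of the 10 genes was higher and the value was -0.015 for ACOX2. As to DSF against 5-FU in Huh1, 3 of the 10 genes were higher and the value was -0.049 for SOD1. Turning to DSF against 5-FU in Huh7, the value was -0.00059 for PRDX3. In the test of the line difference for DSF, 1 of the 10 genes was lower and the values were 0.050 for GPX1, 0.068 for GPX2 and 0.12 for PRDX3. With regard to the line difference for 5-FU, 1 of the 10 genes was lower and the value was 0.028 for SOD1. Regarding the control lines, 1 of the 10 genes was higher. On the spike-in scale, for DSF in Huh1, 2 of the 10 genes were lower and the values were 0.085 for PRDX5, 0.065 for PRDX6, 0.033 for TXNRD1, 0.038 for SELENOH and 0.012 for PEX5. Likewise for DSF in Huh7, 0 of the 10 genes were higher and the values were -0.00034 for GPX1, -0.014 for PRDX1, -0.14 for PRDX6 and -0.0041 for the second GPX1 probe. In the comparison of 5-FU in Huh1, 4 of the 10 genes were higher and 1 of the 10 genes was lower and the values were 0.37 for SOD1, 0.28 for GPX1, 0.35 for GPX4, 0.11 for PRDX1, 0.49 for PRDX3, 0.23 for PRDX6, 0.36 for the second GPX1 probe, 0.076 for the second PRDX1 probe, 0.43 for CCS, 0.36 for TXN, 0.19 for TXNRD1, 0.082 for TXNRD2, 0.41 for SRXN1, 0.15 for IDH2, 0.57 for NNT, 0.77 for SEPHS2, 0.31 for SELENOK, 0.60 for PEX5, 0.34 for PEX11A, 0.085 for GPX3 and 0.61 for PPARA. As to 5-FU in Huh7, 6 of the 10 genes were higher and 1 of the 10 genes was lower and the values were 0.024 for CAT, 0.50 for SOD1, 0.48 for GPX1, 0.30 for GPX4, 0.17 for PRDX1, 0.54 for PRDX3, 0.57 for PRDX6, 0.47 for the second GPX1 probe, 0.19 for the second PRDX1 probe, 0.30 for TXN, 0.049 for TXNRD1, 0.51 for IDH2, 0.59 for NNT, 0.66 for SELENOK, 0.20 for SELENOO, 0.28 for PEX5 and 0.059 for GPX3. Turning to DSF against 5-FU in Huh1, 0 of the 10 genes were higher and 4 of the 10 genes were lower and the values were -0.34 for CAT, -0.59 for SOD1, -0.27 for SOD2, -0.35 for GPX2, -0.38 for GPX4, -0.26 for PRDX1 and -0.16 for PRDX6. In the test of DSF against 5-FU in Huh7, 0 of the 10 genes were higher and 9 of the 10 genes were lower and the values were -0.85 for CAT, -0.48 for SOD1, -0.87 for SOD2, -0.48 for GPX1, -0.40 for GPX2, -0.60 for GPX4, -0.18 for PRDX1, -1.11 for PRDX3 and -0.72 for PRDX6. With regard to the line difference for DSF, 0 of the 10 genes were higher and the values were -0.27 for GPX4 and -0.21 for PRDX6. Regarding the line difference for 5-FU, 0 of the 10 genes were lower and the values were 0.13 for SOD1, 0.056 for PRDX1 and 0.052 for PRDX3. With normexp background correction, for DSF in Huh7, 2 of the 10 genes were higher. With probes well above background on all arrays, for DSF in Huh7, 3 of the 10 genes were higher. With slide as a block, for DSF in Huh1, 1 of the 10 genes was higher. Likewise for DSF in Huh7, 2 of the 10 genes were lower and the values were -0.0025 for PRDX6 and 0.056 for the second PRDX1 probe. In the comparison of the line difference for DSF, the values were 0.00043 for GPX2 and 0.13 for PRDX3. As to the control lines, 1 of the 10 genes was higher. On slide 1 alone, for DSF in Huh1, 1 of the 10 genes was higher. On slide 2 alone, for DSF in Huh7, 2 of the 10 genes were lower and the values were -0.0025 for PRDX6 and 0.056 for the second PRDX1 probe. With the groups of a comparison alone, for DSF in Huh7, 2 of the 10 genes were higher. Turning to the line difference for 5-FU, 1 of the 10 genes was lower.

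With 1 array left out at a time, these values moved across 0 or by over 1.5 times. In the test of DSF in Huh1, the number higher ran from 1 to 2, PRDX5 ran from -0.11 to 0.016 and ACOX2 ran from -0.16 to 0.32. With regard to DSF in Huh7, the number higher ran from 1 to 4. Regarding 5-FU in Huh1, SEPHS2 ran from -0.17 to 0.0016. Likewise for 5-FU in Huh7, PRDX5 ran from -0.011 to 0.10. In the comparison of DSF against 5-FU in Huh1, PRDX3 ran from -0.050 to 0.039. As to DSF against 5-FU in Huh7, PRDX3 ran from -0.032 to 0.092. Turning to the line difference for DSF, GPX4 ran from -0.024 to 0.093 and PRDX3 ran from -0.12 to 0.014. In the test of the line difference for 5-FU, the number higher ran from 0 to 1, the number lower ran from 1 to 3, SOD1 ran from -0.091 to 0.030 and GPX1 ran from -0.066 to 0.15.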
